A study of Mus musculus with 3 samples.

Results

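Pericytes and vascular smooth muscle cells are the mural cells that wrap the blood vessels of the brain, and 7 genes that mark them (Pdgfrb, Rgs5, Vtn and Abcc9 for pericytes, Acta2, Tagln and Myh11 for smooth muscle) are described here in hippocampal RNA of 10-month-old mice. The members were taken by gene name and all 7 were found, each once, among 54532 genes of 1 expression table. The 3 libraries, 1 per genotype, were wild type (WT), PS19, and PS19 mice that had lost one Zbp1 allele (PS19 Zbp1+/-), all on a C57BL/6 background. PS19 mice carry a mutant human tau transgene under the mouse Prnp promoter, which is not specific to vessels, and Zbp1 encodes a sensor of left-handed nucleic acids. Both PS19 groups carry the transgene. The labels do not say whether a library held 1 animal or a pool. With 1 library per genotype no difference below has a replicate check, and each interval covers counting error only.

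Pericytes lie within the basement membrane of capillaries, are recruited by platelet-derived growth factor B from endothelial cells through the receptor Pdgfrb, and take part in keeping the blood-brain barrier closed. Smooth muscle cells surround arterioles and set their diameter through a contractile apparatus of alpha actin, smooth muscle myosin and transgelin. Loss of pericytes has been described in aged and Alzheimer's disease brain, which gives the background for examining these genes in a tau model.

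Whole reads were recovered from FPKM, a level per gene length and per library size that allows genes to be compared. They totalled 16746085 for WT, 16400328 for PS19 and 17109734 for PS19 Zbp1+/-. Zbp1 had 5, 91 and 0 reads in that order, and the 0 reads of the library labelled PS19 Zbp1+/- do not show whether it kept an intact allele. Xist was read in WT and PS19 and not in PS19 Zbp1+/-, where 4 Y-linked genes were read, so sex and genotype cannot be told apart in that library. Of 357 genes with 8 to 12 reads in both other libraries, 57 had none in PS19 Zbp1+/-, or 16.0% (exact 95% interval 12.3% to 20.2%), so a low count there is less certain than its interval states. All 8 hippocampal neuron markers listed reached an FPKM of 1 in each library, which does not show that the libraries held the same mix of tissue. In PS19 Zbp1+/- against PS19, 6 of these markers were higher and 2 lower. Slc17a7 was at 2.15 times PS19 in reads per library size and Prox1 at 0.547 times.

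The mural cell labels were supported unevenly by other markers. Of 16 further pericyte genes, 11 reached an FPKM of 1 in each library. Of 12 further smooth muscle genes, 5, 6 and 5 did so in the same order of libraries. Levels on the smooth muscle list were uneven. Myocd, the coactivator that switches on contractile genes, had 1, 3 and 3 reads, and Cnn1, which encodes calponin, had 17, 3 and 5. Myl9, Mylk, Tpm1, Tpm2 and Smtn reached an FPKM of 1 in each library. Tagln had 1, 3 and 5 reads, so values of the smooth muscle members rest mainly on Acta2 and Myh11. In bulk tissue, fewer cells of a type and less RNA per cell cannot be told apart.

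The promoter sequences of 3 pericyte members are shown, which are those matched among RefSeq promoters (Pdgfrb was not matched). Across the libraries, Rgs5 was highest in PS19, Abcc9 was equally high in both PS19 groups, and Vtn moved least. A link between these sequences and the levels was not tested. Each is the part of the 250 bases before the RefSeq start (GRCm38.p6) that holds no annotated exon, read 5′ to 3′ on the gene's strand. Capitals mark TGGGAA or its complement TTCCCA, the core recognised by RBPJ, the DNA-binding partner of Notch receptors, since Notch3 is a mural cell receptor.
Rgs5, chr1:169655251-169655500, plus strand: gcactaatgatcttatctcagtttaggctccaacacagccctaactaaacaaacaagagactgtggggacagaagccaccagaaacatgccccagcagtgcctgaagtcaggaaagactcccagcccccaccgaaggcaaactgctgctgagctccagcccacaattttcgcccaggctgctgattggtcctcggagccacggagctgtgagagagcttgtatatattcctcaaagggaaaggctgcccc
Vtn, chr11:78498870-78499090, plus strand: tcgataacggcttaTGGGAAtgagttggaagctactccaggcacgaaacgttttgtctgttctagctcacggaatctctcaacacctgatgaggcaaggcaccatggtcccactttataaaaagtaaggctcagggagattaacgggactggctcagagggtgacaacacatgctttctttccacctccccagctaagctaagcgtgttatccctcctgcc
Abcc9, chr6:142702316-142702524, minus strand: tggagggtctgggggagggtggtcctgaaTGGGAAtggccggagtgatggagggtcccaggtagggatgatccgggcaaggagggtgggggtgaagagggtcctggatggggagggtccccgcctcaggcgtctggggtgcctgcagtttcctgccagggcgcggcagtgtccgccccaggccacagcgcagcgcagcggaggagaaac
The stretches shown held 1 RBPJ core in Vtn, 1 in Abcc9 and 0 in Rgs5. Across all 32851 RefSeq windows of 250 bases, 21.6% held at least 1. Over the whole windows, Acta2 also held 1, so 3 of the 4 members matched in the promoter table had the motif. The CArG box, bound by serum response factor and searched on both strands, was in 1.47% of all windows and in none of these 4. Only the exact form CCWWWWWWGG, where W is A or T, was sought. A box with a changed base was therefore not counted. A match is a description of letters, not of a bound site. GC content was 53.6% in the Rgs5 stretch, 49.8% in that of Vtn and 68.4% in that of Abcc9.

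Levels of the 7 genes spanned a wide range within each library, and their order was nearly the same in all 3. Vtn was highest and Rgs5 second in each library, and Abcc9, Myh11 and Tagln were the lowest 3 in that order. Acta2 came next in WT, ahead of Pdgfrb, with exact Poisson intervals that did not overlap. The order of this pair was the opposite in PS19 and in PS19 Zbp1+/-, where the intervals overlapped. Abcc9 and Myh11 were neighbours whose intervals overlapped in WT and not in the other two libraries. Summed over the 4 pericyte genes, the FPKM was 63.4 for WT, 73.9 for PS19 and 73.8 for PS19 Zbp1+/-. The sum over the 3 smooth muscle genes was 6.19, 5.48 and 5.89.

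**Figure D1:**
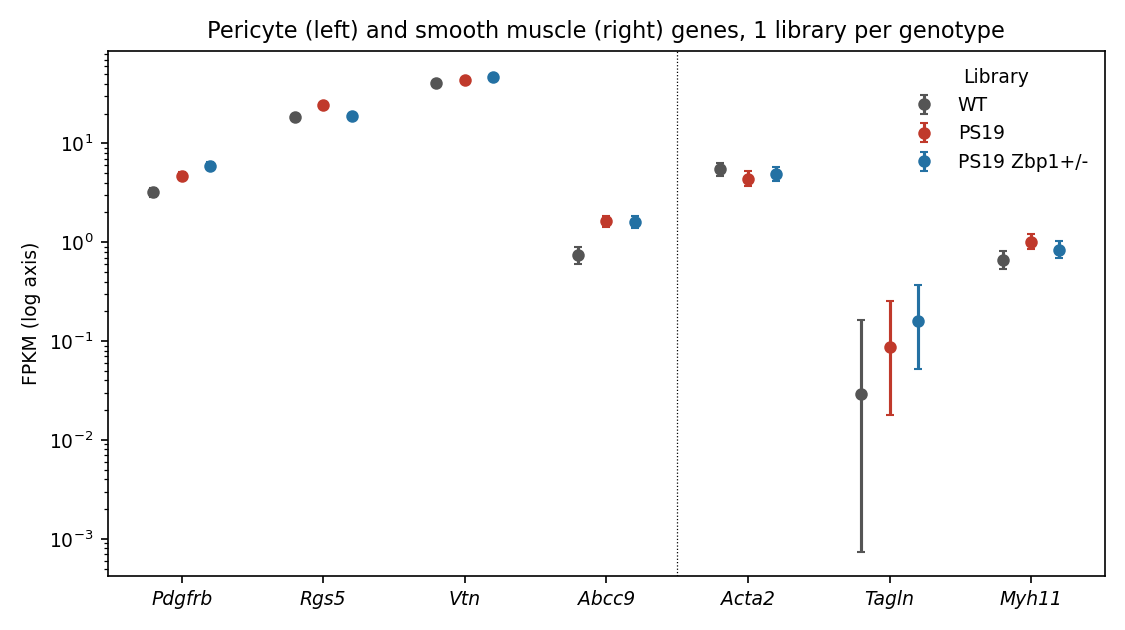
FPKM (log axis) of the 4 pericyte genes and the 3 smooth muscle genes in the WT, PS19 and PS19 Zbp1+/- libraries, with bars for exact 95% Poisson intervals of the reads. Every member except Acta2 was lowest in WT, Vtn was nearly level, and Tagln rested on 1, 3 and 5 reads.

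None of the members differed by 2-fold or more between any pair of libraries on the log2(FPKM + 1) scale, on which 1 unit is 2-fold and changes of weakly expressed genes are understated. A gene counted as measured where one of the compared libraries reached an FPKM of 1. For PS19 against WT, 6 of the 7 members were measured and 0 were 2-fold apart, beside 2.5% of 12703 protein-coding genes (2.2% higher and 0.291% lower). For PS19 Zbp1+/- against PS19, 6 were measured and 0 were apart, beside 7.16% of 12772 genes (2% higher and 5.16% lower). For PS19 Zbp1+/- against WT, 5 were measured and 0 were apart, beside 3.35% of 12436 genes (1.07% higher and 2.28% lower). With so few members and such shares, a count of 0 is near the background. By read ratio in place of the log2 scale, Abcc9 and Tagln (on 1, 3 and 5 reads) were at least 2 times WT in both PS19 groups, beside 4.57% and 2.61% of all genes, and no member was at most 0.5 times WT, beside 0.96% and 4.81%. No member reached either bound in PS19 Zbp1+/- over PS19, beside 3.63% and 9.72% of all genes. Abcc9 passed against WT only through the libraries in which it was higher, Myh11 passed only through PS19, and Tagln passed in no comparison.

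Smaller differences were resolved by counting error in several members. Ratios of reads per library size had 95% intervals above 1 for 4 members between PS19 and WT (Pdgfrb, Rgs5, Abcc9 and Myh11) and below 1 for none, where 28.3% of all genes were above and 32.7% below. In PS19 Zbp1+/- over PS19, 2 members were above (Pdgfrb and Vtn) and 1 below (Rgs5), where 39% and 32.6% of all genes were. In PS19 Zbp1+/- over WT, 3 were above (Pdgfrb, Vtn and Abcc9) and none below, where 35.3% and 31.3% of all genes were. These ratios use the library sizes implied by FPKM. Only PS19 Zbp1+/- held more reads (17109734) than its implied size (15826984), which raises its ratios relative to scaling by total reads. With total reads, the differences of Pdgfrb and Vtn against PS19 became 0.14 and -0.07 log2 units. The Vtn difference from WT became 0.04, and no interval was computed under that scaling. Such an interval compares libraries and not genotypes. The 3 comparisons share libraries, so their values are set side by side and not counted as independent.

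**Figure D2:**
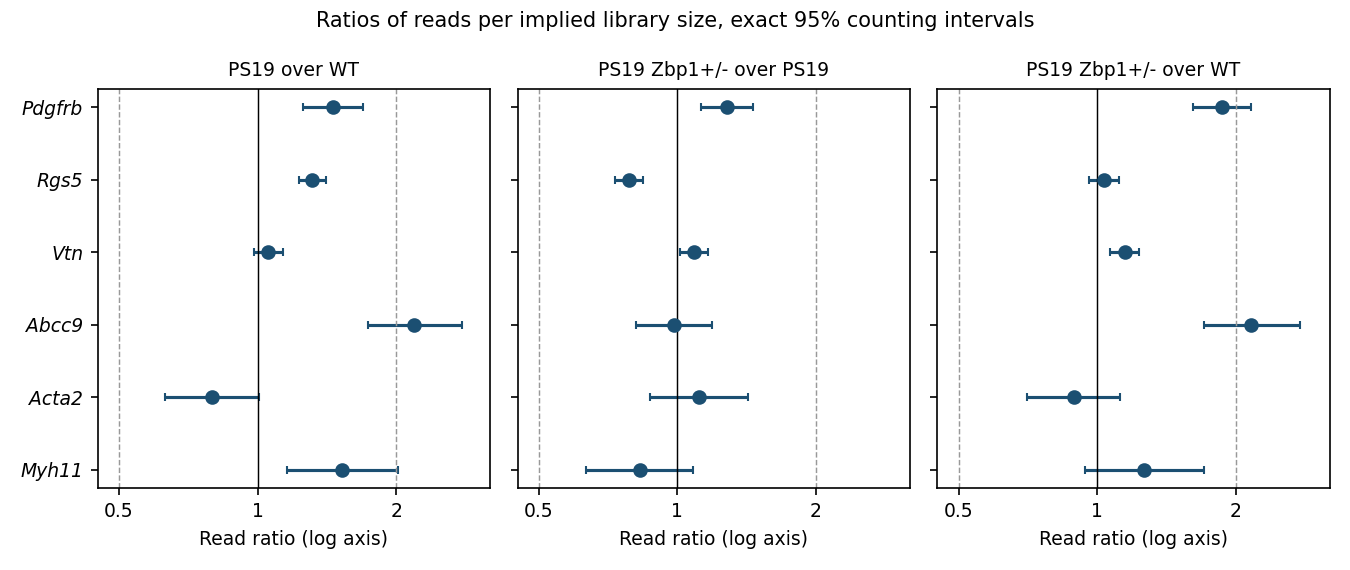
Ratios of recovered reads per library size (log axis) for 6 members in the 3 comparisons, with exact 95% counting intervals, a solid line at 1 and dashed lines at 0.5 and 2. Abcc9 lay near 2 against WT in both PS19 groups, and Rgs5 lay above 1 in PS19 over WT and below 1 in PS19 Zbp1+/- over PS19 (Tagln, with 1 to 5 reads, is not drawn).

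Pdgfrb (ENSMUSG00000024620, chromosome 18, 61045150 to 61085061, plus strand) encodes the receptor through which pericytes are recruited and kept on capillaries. The WT library gave an FPKM of 3.19 (301 reads), the PS19 library 4.64 (439 reads) and the PS19 Zbp1+/- library 5.94 (515 reads). WT was lowest and PS19 Zbp1+/- highest, and the exact Poisson intervals of the 3 libraries did not overlap. In reads per library size, PS19 stood at 1.46 times WT (95% interval 1.25 to 1.69), and PS19 Zbp1+/- stood at 1.28 times PS19 (1.13 to 1.46) and 1.87 times WT (1.61 to 2.16). On the log2(FPKM + 1) scale the last difference was 0.73, and 3.73% of all measured genes had a larger one. The step from PS19 to PS19 Zbp1+/-, 0.30 log2 units, was exceeded by 25.9% of genes and shrank to 0.06 when the libraries were rescaled to the same FPKM sum and to 0.14 with total reads.

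Abcc9 (ENSMUSG00000030249, chromosome 6, 142587862 to 142702315, minus strand) encodes SUR2, the sulfonylurea receptor subunit of the ATP-sensitive potassium channel of mural cells. The FPKM of the WT library was 0.741 (107 reads), that of PS19 1.62 (235 reads) and that of PS19 Zbp1+/- 1.60 (212 reads). Both PS19 groups stood above WT and their own Poisson intervals overlapped. In reads per library size, PS19 stood at 2.19 times WT (95% interval 1.74 to 2.78). PS19 Zbp1+/- stood at 2.16 times WT (1.70 to 2.75) and 0.985 times PS19 (0.815 to 1.19). On the log2(FPKM + 1) scale its difference from WT was 0.59 in PS19 and 0.58 in PS19 Zbp1+/-. Annotated exons of 5330439B14Rik on the other strand cover 158 bases of its exons, and that gene had no read in any library.

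Kcnj8, which encodes the pore Kir6.1 that SUR2 joins, lies 16248 bases from Abcc9 (chromosome 6, 142564837 to 142571614). Its reads numbered 69, 84 and 69 (WT first, PS19 Zbp1+/- last), and the PS19 value of 1.21 times WT had an interval, 0.873 to 1.70, that held 1. The interval of Kcnj8 ended below that of Abcc9 in PS19 against WT. Kcnj11 and Abcc8, which form the neuronal channel, had differences between -0.06 and 0.16 log2 units in the 3 comparisons. None of these 3 channel genes differed by 2-fold in any comparison.

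Rgs5 (ENSMUSG00000026678, chromosome 1, 169655501 to 169695813, plus strand) encodes a regulator of G protein signalling used as a pericyte and smooth muscle marker. FPKM values were 18.5 for WT (1448 reads), 24.3 for PS19 (1908 reads) and 19.1 for PS19 Zbp1+/- (1374 reads). PS19 was highest, and the Poisson intervals of the other two libraries overlapped. Rgs5 reads in PS19 were 1.31 times those in WT (95% interval 1.23 to 1.41), and those in PS19 Zbp1+/- were 0.787 times PS19 (0.733 to 0.844) and 1.03 times WT (0.960 to 1.11). On the log2(FPKM + 1) scale, 12.1% of genes exceeded its difference of 0.38 between PS19 and WT, and 22.2% lay below its -0.33 between PS19 Zbp1+/- and PS19. The latter became -0.60 with rescaling to the same FPKM sum and -0.51 with total reads. The difference between PS19 Zbp1+/- and WT, 0.05, turned to -0.10 with rescaling to the same FPKM sum or to total reads.

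Vtn (ENSMUSG00000017344, chromosome 11, 78499091 to 78502324, plus strand) encodes vitronectin, a matrix protein that pericytes secrete in the brain and that binds integrins. WT had an FPKM of 41.1 (1438 reads), PS19 one of 43.4 (1522 reads) and PS19 Zbp1+/- one of 47.1 (1514 reads). WT was lowest and PS19 Zbp1+/- highest, the Poisson interval of PS19 overlapped both others, and those of WT and PS19 Zbp1+/- did not overlap. Vtn reads in PS19 were 1.06 times WT (95% interval 0.982 to 1.14), and those in PS19 Zbp1+/- were 1.09 times PS19 (1.01 to 1.17) and 1.15 times WT (1.07 to 1.24). Highest over lowest FPKM was 1.15, the smallest spread of the 7 genes. The difference between PS19 Zbp1+/- and PS19, 0.12 log2 units, turned to -0.16 with rescaling to the same FPKM sum and to -0.07 with total reads. The Vtn difference between PS19 Zbp1+/- and WT, 0.19, was 0.04 under either scaling, and that between PS19 and WT, 0.08, was 0.20 with the same FPKM sum.

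Acta2 (ENSMUSG00000035783, chromosome 19, 34241090 to 34255336, minus strand) encodes the alpha actin of smooth muscle. It was highest in WT, at an FPKM of 5.5 (169 reads), beside 4.38 for PS19 (135 reads) and 4.90 for PS19 Zbp1+/- (138 reads). The Poisson intervals of the 3 libraries overlapped. All 3 read ratios had intervals that held 1: PS19 over WT was 0.797 (95% interval 0.631 to 1.01), PS19 Zbp1+/- over PS19 1.12 (0.874 to 1.43) and PS19 Zbp1+/- over WT 0.890 (0.706 to 1.12). The Acta2 difference of 0.13 log2 units between PS19 Zbp1+/- and PS19 turned to -0.10 with rescaling to the same FPKM sum and to -0.02 with total reads. Among the transcripts of other genes, none matched Acta2 over 300 bases at 90% identity.

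Myh11 (ENSMUSG00000018830, chromosome 16, 14194535 to 14291372, minus strand) encodes the smooth muscle myosin heavy chain. Myh11 had an FPKM of 0.664 (87 reads) for WT, 1.01 (133 reads) for PS19 and 0.840 (101 reads) for PS19 Zbp1+/-. PS19 was highest, and its Poisson interval lay above that of WT and overlapped that of PS19 Zbp1+/-. Myh11 reads in PS19 were 1.53 times WT (95% interval 1.16 to 2.02), and those in PS19 Zbp1+/- were 0.830 times PS19 (0.634 to 1.08) and 1.27 times WT (0.941 to 1.71). Acta2 and Myh11, both of the contractile apparatus, lay on opposite sides of 1 in PS19 over WT, and the interval of Acta2 held 1.

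Tagln (ENSMUSG00000032085, chromosome 9, 45929619 to 45936058, minus strand) encodes transgelin, an actin-binding protein of smooth muscle. Only 1 read was found for WT, 3 for PS19 and 5 for PS19 Zbp1+/-, giving FPKM values of 0.0292, 0.0873 and 0.159. No difference was detectable at this depth, since the ratio of PS19 Zbp1+/- to WT was 5.45 with a 95% interval of 0.610 to 258. Exons of Gm48529 and Pcsk7 on the opposite strand cover 1349 of its exonic bases, against a table length of 1988. Gm48529 had 4, 14 and 10 reads and Pcsk7 had 420, 453 and 396. How reads in shared bases were assigned is not given in the sources used here, and reads of Tagln and these genes cannot be told apart without strand, so the Tagln level is uncertain.

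**Figure D3:**
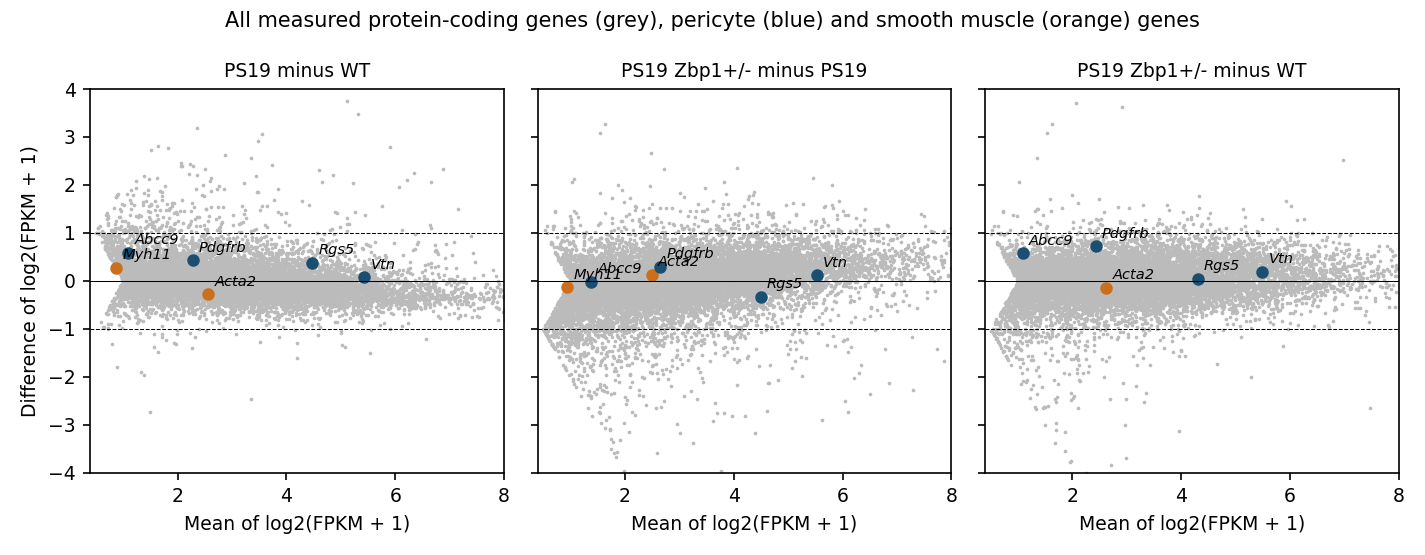
Difference of log2(FPKM + 1) against the mean of log2(FPKM + 1) in the 3 comparisons for all measured protein-coding genes (grey), with the pericyte genes in blue and the smooth muscle genes in orange (genes past 4 units are off the axis). Every member that passed the filter lies between the dashed lines at -1 and 1, within the body of the grey points.

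As a set, the members that passed the filter had a median difference of 0.33 log2 units between PS19 and WT, where the median over all genes was -0.03. Abcc9 and Myh11 passed there only through PS19, which favours a higher median. Without the filter, the median over all 7 members was 0.27. For the 4 pericyte genes the median was 0.40, with values from 0.08 to 0.59, and the 2 smooth muscle genes were at -0.27 and 0.27. In PS19 Zbp1+/- against PS19 the median over the members was 0.05 beside 0.04 for all genes, with 3 members above 0 and 3 below. That median was -0.18 after rescaling to the same FPKM sum, -0.10 after scaling to total reads and -0.01 after median ratio scaling. Those scalings moved the median of all genes to -0.20, -0.12 and -0.02. For PS19 Zbp1+/- against WT the members' median was 0.19 beside 0.01 for all genes, and it was 0.04 under either of the first 2 scalings, which moved the median of all genes to -0.12. Without the filter, the median over all 7 members in that comparison was 0.17. For PS19 against WT, rescaling to the same FPKM sum shifted the all-gene median from -0.03 to 0.08, and that of the members to 0.42.

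Ligands and partners of the members were taken from lists by pathway and family. Pdgfb, the ligand that endothelial cells release for Pdgfrb, had FPKM values of 8.50 (WT), 9.70 (PS19) and 13.2 (PS19 Zbp1+/-). PS19 was at 1.14 times WT in reads (95% interval 1.02 to 1.28) and PS19 Zbp1+/- at 1.36 times PS19 (1.23 to 1.51), so ligand and receptor had the same order of libraries. Pdgfd, another ligand of Pdgfrb, had 140, 179 and 32 reads and was lower in PS19 Zbp1+/- by -1.38 log2 units against PS19 and -1.12 against WT. It was the single one of 5 measured platelet-derived growth factor genes to differ by 2-fold in either comparison. Pdgfa, a ligand of the alpha receptor, was at -0.40 log2 units in PS19 against WT.

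All 4 measured vitronectin receptor subunits were higher in PS19 than in WT and lower in PS19 Zbp1+/- than in PS19, while Vtn itself was nearly level. Itgb5, the beta 5 integrin that pairs with Itgav to bind vitronectin, had FPKM values of 18.3 (WT), 38.9 (PS19) and 20.8 (PS19 Zbp1+/-). It was the single one of the 4 to differ by 2-fold between PS19 and WT, at 1.05 log2 units. Itgb8 differed by -1.53 log2 units between PS19 Zbp1+/- and PS19, from 1725 to 433 reads. These integrins are made by glia as well as by vessels.

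Among the regulators of smooth muscle genes, Srf, which encodes serum response factor, had FPKM values of 22.8 (WT), 17.7 (PS19) and 25.8 (PS19 Zbp1+/-). Its cofactor Mkl2 had 18.9, 20.1 and 29.7. None of the 3 measured genes of that list differed by 2-fold, and all 3 were higher in PS19 Zbp1+/- than in PS19, with a median of 0.52 log2 units. That median was 0.25 with rescaling to the same FPKM sum and 0.34 with total reads. Among actin and myosin relatives of the members, Acta1, the skeletal muscle actin, had 110, 69 and 165 reads and was 1.11 log2 units higher in PS19 Zbp1+/- than in PS19. Myh9, a nonmuscle myosin of the same family as Myh11, was at 0.47 log2 units in PS19 against WT. The R4 family of Rgs5 held one gene with a 2-fold difference, Rgs16, with 134, 283 and 60 reads and a difference of -1.61 log2 units between PS19 Zbp1+/- and PS19. Rgs2, of the same family, had 883, 596 and 454 reads.

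Of the 11 measured further pericyte genes, 0 differed by 2-fold between PS19 and WT, and 8 were above 0 with a list median of 0.17 log2 units. Notch3, the mural cell Notch receptor, had 260 reads for WT, 513 for PS19 and 345 for PS19 Zbp1+/-, and PS19 was at 1.97 times WT (95% interval 1.69 to 2.29). Mcam, an adhesion molecule of mural and endothelial cells, was at 0.47 log2 units in that comparison and at -0.90 in PS19 Zbp1+/- against PS19. In the latter comparison 4 of the 11 genes were above 0 and 7 below, and 1 gene differed by 2-fold. The list median there was -0.05, and it was -0.25 with rescaling to the same FPKM sum and -0.18 with total reads. That gene, Slc6a20a, a proline transporter, had 431, 426 and 84 reads. Highest of the 11 in PS19 Zbp1+/- against PS19 was Cspg4, at 0.53 log2 units. In PS19 Zbp1+/- against WT, 8 of the 11 genes were above 0 and 3 below, with a median of 0.12. Cspg4 was at 0.80 in that comparison and Slc6a20a at -1.63. The part of other cell types in the reads of Cspg4 and Slc6a20a was not tested.

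Of 6 measured further smooth muscle genes, Synpo2, which encodes an actin-binding protein of muscle, differed by 2-fold between PS19 and WT. Over all measured genes, 2.2% were at least 2-fold higher. Synpo2 passed the filter only through PS19 (FPKM 2.95, beside 0.327 for WT), which favours such a call. It had 74 reads for WT, 669 for PS19 and 136 for PS19 Zbp1+/-, and PS19 was at 9.02 times WT (95% interval 7.09 to 11.6). Acta2 and Myh11 showed no difference of that size. The list median was 0.06 log2 units between PS19 and WT and -0.33 between PS19 Zbp1+/- and PS19. Between PS19 Zbp1+/- and WT it was -0.18 over 5 genes, since Synpo2, at 0.32 there, did not pass the filter. Myl9, a regulatory myosin light chain, was at -0.34 and Mylk, the kinase of that chain, at -0.25 in that comparison. Rescaling to the same FPKM sum gave medians of 0.17, -0.54 and -0.28.

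Choroid plexus, fibroblast and blood genes differed more than the members in the comparisons of PS19 Zbp1+/-. Each of the 10 choroid plexus genes was lower by 2-fold or more in PS19 Zbp1+/- against either other library, with medians of -3.19 log2 units against PS19 and -3.74 against WT. Their summed FPKM was 3442 for WT, 2183 for PS19 and 27.0 for PS19 Zbp1+/-. Kcnj13 had 1 read there and Ttr 136. Of 8 measured fibroblast and meningeal genes, 4 were at least 2-fold lower and 1 higher in PS19 Zbp1+/- against PS19, among them Fmod at -2.33, Col1a2 at -1.12 and Ogn at -1.11. Of the pericyte members in that comparison, Rgs5 was at -0.33, Abcc9 at -0.01, Vtn at 0.12 and Pdgfrb at 0.30, with a median of 0.05 that became -0.18 with rescaling to the same FPKM sum. The part of plexus and meningeal tissue, which hold mural cells of their own, in the members' values was not tested. Blood genes summed to an FPKM of 19.0, 15.8 and 3.44.

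The endothelial list, whose cells the mural cells wrap, had a median difference of 0.10 log2 units between PS19 and WT over 12 genes, with 0 genes apart by 2-fold. The endothelial genes furthest from WT were Abcb1a, an efflux pump of the barrier, at 0.70 and Cdh5, the endothelial cadherin, at 0.65. In PS19 Zbp1+/- against PS19 the median was -0.22 over 11 genes, with Slc2a1, the glucose transporter, at -1.10 log2 units. There, 9 genes were below 0 and 2 above: Cldn5, a tight junction gene, at 0.96 and Kdr at 0.47. Rescaling to the same FPKM sum gave an endothelial median of 0.21 between PS19 and WT and of -0.43 between PS19 Zbp1+/- and PS19, and total reads gave -0.36 for the latter. In PS19 Zbp1+/- against WT 6 genes were above 0 and 6 below, with Slc2a1 at -0.76 and Cldn5 at 0.74. Astrocyte genes, whose endfeet contact the pericytes, had a median of 0.54 between PS19 and WT, led by Aqp4, the water channel of the endfoot, at 1.45. In PS19 Zbp1+/- against PS19 the astrocyte median was -0.41 with 4 of 5 genes below 0, and Aqp4 was at -1.82. With rescaling to the same FPKM sum that median was -0.69. The part of these cell types in the values of Pdgfrb, Abcc9 and Rgs5 was not tested.

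**Figure D4:**
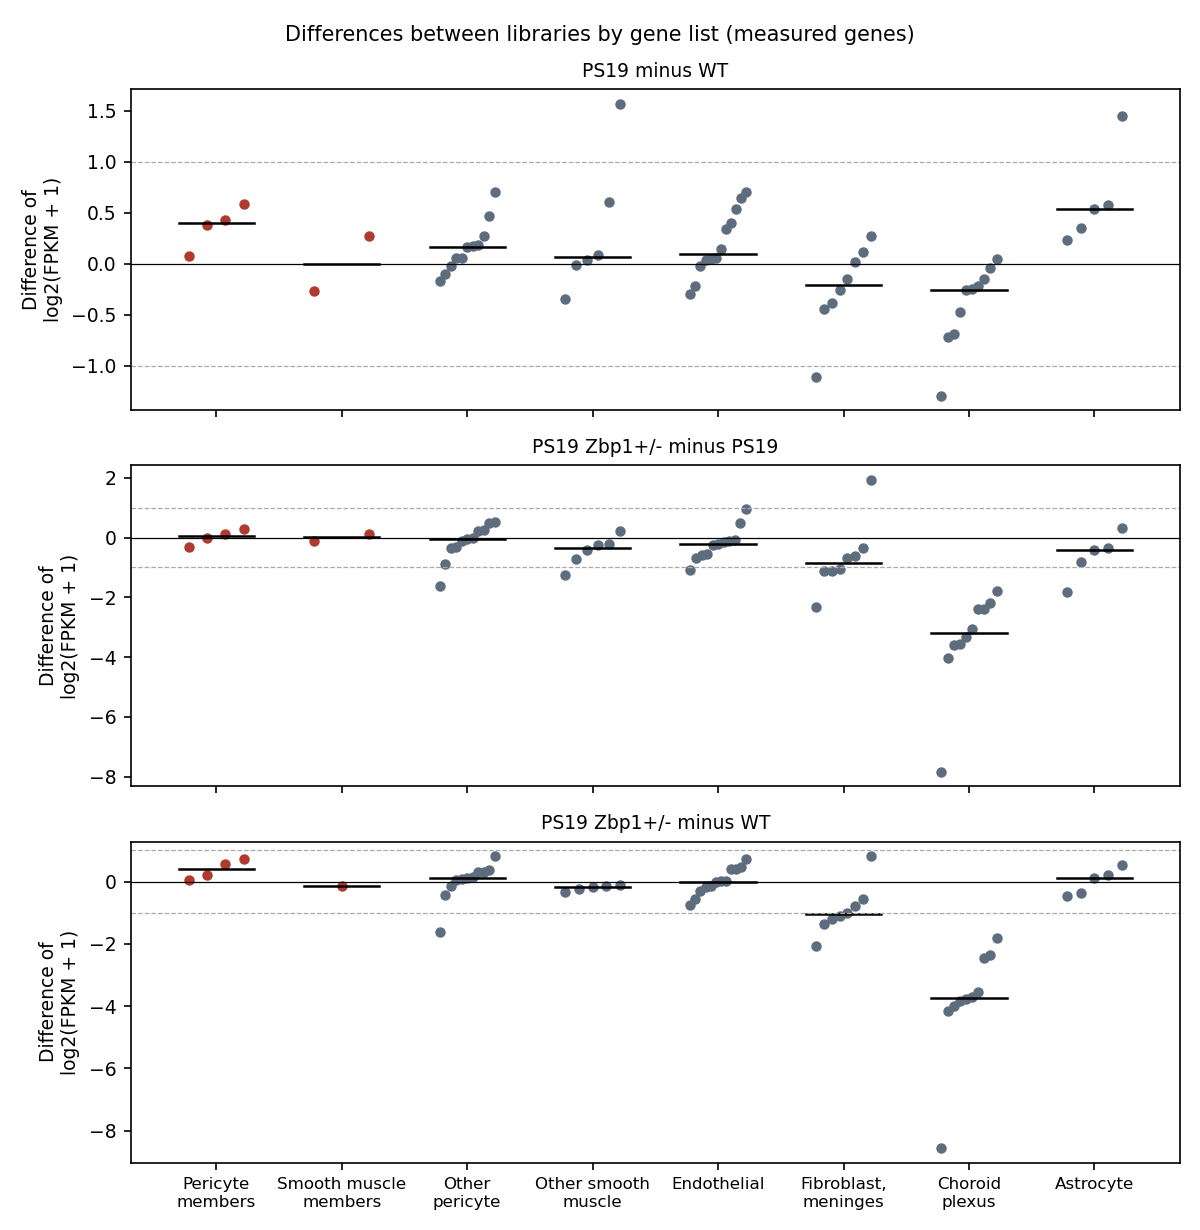
Differences of log2(FPKM + 1) for each measured gene of 8 lists in the 3 comparisons, with the members in red, black bars for list medians and dashed lines at -1 and 1. Choroid plexus genes lie far below 0 in both comparisons of PS19 Zbp1+/-, while the members stay between -0.33 and 0.73.

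Genes with the most similar pattern were found by Euclidean distance between centred log2(FPKM + 1) values over the 3 libraries, against the median profile of the 7 members. Among the nearest of 12869 genes were Mta2 and Tanc1, each at a distance of 0.0054, Map4k2 at 0.0057 and Zfp182 at 0.0088. The nearest member itself, Tagln, was at 0.07 and 348 other genes were nearer. Tagln had only 1, 3 and 5 reads, and this scale understates changes of so weakly read a gene, so its place shows no shared pattern. Pdgfrb, the farthest member, was at 0.36, and 6601 genes were nearer. With 3 libraries the profile has too few points to set the members apart from other genes. None of these genes was among the 5 nearest when the pericyte or the smooth muscle members were used alone, where Tle3 and Nans came first.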

How the data were processed

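RNA of the hippocampus was sequenced in 3 libraries, 1 per genotype. The authors deposited 1 table of FPKM values for 54532 genes, and the unit comes from the file's name and values. The submitters' processing notes name Trim Galore 0.6.5, STAR 2.5.3a, featureCounts 2.0.4 and mm39. Gene positions in the table equal those of GENCODE M21 (GRCm38) for 98.3% of 54409 shared IDs, so they are given as GRCm38. Strand and multi-mapping settings are not given in the sources used here. FPKM times gene length came out as whole steps in 100% of values (tolerance 0.01 read), which gave whole reads and library sizes of 17253479, 17287957 and 15826984 for WT, PS19 and PS19 Zbp1+/-.

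Differences were taken of log2(FPKM + 1) over protein-coding genes that reached an FPKM of 1 in one of the compared libraries, and a difference of 1 counted as 2-fold. Read ratios carry exact (Clopper-Pearson) 95% intervals and levels exact Poisson intervals. No p-value was computed. The members and the 16 gene lists (122 genes, 120 of them in the table) were chosen with earlier results of these data known. From each list and comparison, up to 4 genes past 2-fold, or up to 2 where none was, are named by size of difference, with Pdgfb, Kcnj8, relatives of members and the 5 nearest profiles, of which 1 is not reported here. Further genes are named as described in the text. Alternatives covered pseudocounts, scalings, filters, biotypes, thresholds and lists without their most changed gene. One more, the log2 read ratio with counts raised to a minimum of 3, was added after the data had been seen. On simulated data, reads were recovered in 100% of 54532 genes, and all 200 genes changed 4-fold were called in each comparison, with 4 of 12202 unchanged genes called for PS19 against WT. Promoters came from RefSeq (GRCm38.p6), where 4 of 7 members were matched. Near-identical transcripts were sought with BLAST 2.17.0. Scripts ran in Python 3.11.15 with pandas 2.3.3, numpy 2.4.6 and scipy 1.17.1, and figures were drawn with matplotlib 3.10.9.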

Additional observations from a re-analysis of the deposited data

How the results depend on the processing

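The count of members at least 2-fold higher was 0 in each comparison and became 1, in each case Abcc9, between PS19 and WT and between PS19 Zbp1+/- and WT with a pseudocount of 0.1 and with read ratios. Its differences were then 1.04 and 1.02, and 1.13 and 1.11 log2 units. Of all genes, 4.26% and 2.33% were called higher with that pseudocount, and 4.51% and 2.61% with read ratios. With a threshold of 1.5-fold 1 member was also called in both comparisons (Abcc9 in PS19, at 0.59, and Pdgfrb with 0.73 in PS19 Zbp1+/-, where Abcc9 was at 0.58). At that threshold, 6.34% and 6.71% of all genes were called higher in these comparisons. No member was called lower under any alternative run. Over all genes, the alternatives gave 263 to 806 higher and 28 to 344 lower genes between PS19 and WT, 118 to 1197 and 604 to 1544 between PS19 Zbp1+/- and PS19, and 76 to 834 and 241 to 886 between PS19 Zbp1+/- and WT. The share of higher genes among those called was 27.9% between PS19 Zbp1+/- and PS19 and 32.0% between PS19 Zbp1+/- and WT. It was 10.5% and 17.1% after rescaling to the same FPKM sum and 14.7% and 17.4% after scaling to total reads. Tagln differed by 0.08 log2 units between PS19 and WT and by -0.0029 with read ratios. No paired analysis was possible because each genotype has 1 library. Depth limits Tagln, with at most 5 reads, to no comparison, and Acta2 and Myh11, with 87 to 169 reads, to wide intervals.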

Other observations

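Within the fibroblast and meningeal list, Dcn encodes the matrix proteoglycan decorin. It went against the other measured genes in both comparisons of PS19 Zbp1+/-, where 1 was above 0 and 7 below. Between PS19 and WT, Dcn was at -1.11 log2 units, with 5 genes of the list below 0 and 3 above. Dcn reads numbered 1140 for WT, 474 for PS19 and 1910 for PS19 Zbp1+/-, and PS19 Zbp1+/- was at 4.40 times PS19 (95% interval 3.98 to 4.88). Fmod, which encodes the related proteoglycan fibromodulin, had 314, 391 and 29 reads. Lowest in PS19 was Dcn, and lowest in PS19 Zbp1+/- were Fmod, Ogn, Col1a2 and Slc6a13. The summed FPKM of that list, 33.8, 25.8 and 26.2, therefore hides opposite movements of its members.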
